A study of Mus musculus with 12 samples.

Results

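The 33 genes described here encode the mouse antioxidant defence built on glutathione and thioredoxin, together with catalase, the superoxide dismutases and the switch that controls many of them. They were taken by symbol from a list that was chosen with earlier results of these data known. Matched to the Ensembl identifiers of the deposited tables, all 33 were found among 41388 genes. Their expression was measured by RNA sequencing in 12 libraries from the brains of 8 mice. All 8 mice carried Bmal fl/fl, a floxed form of the gene for the clock transcription factor BMAL1, on a C57BL/6 background, and all were dosed at 2 months with tamoxifen (2 mg daily, 5 days). The Cre+ mice also carried ALDH1L1-CreERT2, a tamoxifen-dependent Cre recombinase under an astrocyte promoter, and are called aKO (astrocyte knockout). The Cre- mice are called WT, although they too were floxed and dosed. Brains were taken at 7 months of age and digested, and astrocytes were pulled out with magnetic beads against ACSA-2, an astrocyte surface antigen. The cells left behind are called flowthrough. Astrocyte libraries came from 3 WT animals (201, 202 and 265) and 5 aKO animals (203, 205, 208, 221 and 222), and flowthrough libraries from WT 201 and 202 and aKO 203 and 205. The astrocyte library of animal 202 is WT by its title and knockout by its genotype field, and was kept as WT.

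Glutathione is a tripeptide made from cysteine, glutamate and glycine. Cells import cystine through the antiporter encoded by Slc7a11, join cysteine to glutamate with glutamate-cysteine ligase (Gclc and Gclm) and add glycine with glutathione synthetase (Gss). Peroxidases and transferases spend it, and glutathione reductase (Gsr) restores it. Many of these genes are induced by NRF2, the product of Nfe2l2, which KEAP1 marks for destruction until oxidants or electrophiles release it. NRF2 binds with small MAF proteins to the antioxidant response element. In the brain, astrocytes are known for high glutathione production and for passing its building blocks to neurons.

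The antioxidant response element is shown here because NRF2, which induces many of these genes, binds to it. Its core, TGACNNNGC, was searched on both strands of the RefSeq promoter windows in GRCm38.p6, which run from 250 bases before to 50 bases after a transcription start. Windows existed for 28 of the 33 genes, and 8 of the 28 (28.57%) held the core, beside 13.99% of 27025 genes with a window. Each match is printed in the direction of the motif with 10 flanking bases on each side, and capitals mark the core.
Gclm: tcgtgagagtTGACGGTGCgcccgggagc
Gstm5: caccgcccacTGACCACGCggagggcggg
Mgst1: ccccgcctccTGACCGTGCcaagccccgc
Nfe2l2: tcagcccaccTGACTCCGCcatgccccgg
Prdx1: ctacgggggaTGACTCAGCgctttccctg
Sod1: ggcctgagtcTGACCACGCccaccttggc
Srxn1: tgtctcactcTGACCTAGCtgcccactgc
Txnrd1: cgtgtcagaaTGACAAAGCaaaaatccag
In the order printed, they lie at chr3:122245413-122245441 on the minus strand, chr3:107895802-107895830 on the plus strand, chr6:138140461-138140489 on the minus strand and chr2:75704885-75704913 on the minus strand. They continue with chr4:116685456-116685484, chr16:90220696-90220724, chr2:152105542-152105570 and chr10:82859104-82859132, all on the minus strand. Relative to the RefSeq start of its window, the Srxn1 match lies after the start and the others before it. The Mgst1 match nevertheless lies inside the span of that gene in the deposited tables, chr6:138140316-138156755. The Prdx1 core is the only one of the 8 that reads TGACTCAGC, which also holds the AP-1 sequence TGACTCA. The E-box CACGTG, to which BMAL1 binds with CLOCK, was found in 1 of the 28 windows, that of Prdx4 at chrX:155338497-155338522 on the minus strand (5' to 3': agcttgcgccCACGTGgcggaggggc), beside 8.09% of genes. A match describes the letters of the window only.

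Total counts ran from 21816637 to 62655238 per library, and no listed gene had fewer than 43 counts in an astrocyte library or 129 in a flowthrough library. The 33 genes together took 0.742% to 0.965% of the counts in astrocytes and 0.40% to 1.07% in flowthrough. Levels below are CPM, the count relative to the library total after TMM scaling over all 12 libraries. Bead-isolated libraries carried more astrocyte RNA, with 10 of 13 astrocyte markers higher at 0.377% to 1.64% of the counts against 0.0375% to 0.592%, and all 12 microglial markers lower at 0.0348% to 0.0765% against 0.726% to 1.22%. Choroid plexus markers took 1.43% to 17.7% in astrocytes and 8.95% to 33.4% in flowthrough. Arntl, the floxed gene, stood at 2.99, 7.52 and 2.23 CPM in WT astrocytes and at 9.44, 17.5, 8.78, 10.9 and 5.91 CPM in aKO astrocytes. Its estimate was 1.33 (SE 0.47), higher in the libraries labelled aKO, and did not pass (edgeR adjusted p = 0.9997). These counts therefore show no loss of Arntl RNA in those libraries. The files give 1 count per gene and none per exon, so whether the floxed exon was lost was not tested, and WT and aKO stand throughout for the libraries so labelled. Xist, from the inactive X of females, had 2044 and 972 counts in aKO 221 and 222 and no more than 46 elsewhere, and no label gives the sex.

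Compared per gene length, the most abundant listed transcript in astrocytes was Gstm1, a mu-class glutathione transferase, with a mean of 931 ± 296 RPKM (SD, n = 8). It was followed by Sod1, the copper-zinc superoxide dismutase of the cytosol, at 684 ± 368 RPKM and Gstm5 at 575 ± 110.1 RPKM. Their ranges of 1 SD around the mean overlapped. Next came Gstp1 at 432 ± 174, the lipid peroxide-reducing Gpx4 at 374 ± 107, Prdx1 at 360.5 ± 61.9 and Prdx6 at 319 ± 141 RPKM. The genes of glutathione synthesis stood far lower, at 6.08 ± 1.39 RPKM for Gclc, 5.06 ± 2.10 for Slc7a11, 4.91 ± 1.31 for Gclm and 3.58 ± 1.59 for Gss. The lowest was Txnrd2, the mitochondrial thioredoxin reductase, at 1.54 ± 0.730 RPKM. In flowthrough the highest were Gstm1 at 601 ± 546 RPKM (SD, n = 4), Gpx4 at 510.2 ± 91.7 and Prdx5 at 447 ± 91.0, and the lowest was Slc7a11 at 0.856 ± 0.377 RPKM. RPKM is the deposited value, which divides by gene length and library total.

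Between the 2 fractions, Slc7a11 was higher and Nfe2l2 was lower in astrocytes, and no other of the 33 genes passed the test. Slc7a11, the cystine-glutamate antiporter, measured 64.6, 49.7 and 54.3 CPM in WT astrocytes 201, 202 and 265 and 50.5, 73.5, 40.2, 44.4 and 34.2 CPM in aKO astrocytes 203, 205, 208, 221 and 222. The flowthrough libraries held 10.01, 13.1, 13.8 and 5.18 CPM (WT 201, WT 202, aKO 203 and aKO 205). Every astrocyte library lay above every flowthrough library, in both genotypes. The log2 fold change was 2.32 (SE 0.36), which is 4.99-fold (edgeR quasi-likelihood, p adjusted by Benjamini-Hochberg over 20637 genes, adjusted p = 2.94e-04). It passed in each of its 21 alternative settings, with estimates from 2.07 to 2.76. Slc7a11 lies at chr3:50364936-50443613 in GRCm38, where no other gene of the files overlaps its exons.

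Nfe2l2, which encodes NRF2, measured 129, 95.4 and 61.0 CPM in the WT and 86.8, 92.9, 106, 101 and 74.5 CPM in the aKO astrocyte libraries, in the same order of animals. The flowthrough libraries held 308, 181, 246 and 177 CPM. Here every astrocyte library lay below every flowthrough library. The log2 fold change was -1.28 (SE 0.32), or 2.43-fold lower (edgeR quasi-likelihood, adjusted p = 0.0104). It no longer passed without flowthrough WT 201, its highest library (-1.05, edgeR adjusted p = 0.10), or with library totals in place of TMM (-0.996, edgeR adjusted p = 0.0566). Library totals shift the median estimate of all genes by 0.253 towards astrocytes. Keap1, its inhibitor, overlapped between fractions, with 10.6, 11.6 and 11.8 CPM in the WT astrocyte libraries, 15.8, 21.8, 9.54, 22.1 and 11.7 CPM in the aKO ones and 12.2, 12.4, 15.0 and 19.9 CPM in flowthrough (log2 estimate -0.11, SE 0.29). Nfe2l2 lies at chr2:75675513-75704641.

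These calls are 2 of 33 genes, or 6.06%, beside 17% of all genes tested (8.52% higher and 8.52% lower). At an unadjusted p under 0.05 there were 6 listed genes, beside 32% of all genes. The median estimate of the list was -0.17 beside 0.07 over all genes, with 13 estimates above 0 and 20 below, but with library totals in place of TMM 20 lay above and 13 below. The direction was the same in all 4 animals for 16 listed genes, beside 47.8% of all genes, 7 of them higher (27.3% of all genes) and 9 lower (20.5%). Only 1 listed gene had groups without overlap in each direction, where 5.01% of all genes did so higher and 5.93% lower in astrocytes. In a simulation of this comparison with 200 changed genes, 80.5% of 4-fold changes and 0% of 2-fold changes were called. The real comparison called 3517 genes, so its cutoff on the unadjusted p was less strict and the simulated shares are only a rough guide. Apart from Slc7a11 and Nfe2l2 the estimates lay between -1.02 and 0.95. Differences of that size can be missed. The fractions also differ in the cells they hold: besides the markers above, all 10 leukocyte and all 10 erythroid markers were lower in astrocytes and 8 of 10 oligodendrocyte, 4 of 8 neuronal and 3 of 6 fibroblast markers higher. Leukocyte markers took 0.00713% to 0.0336% of the counts in astrocytes and 0.147% to 0.377% in flowthrough, with Cd3e, Ltb and Ms4a1 at 0 in some astrocyte libraries, and erythroid markers 0.0201% to 0.184% and 0.330% to 1.38%, with Epb42 and Rhag at 0 in some. Oligodendrocyte markers took 0.369% to 2.31% and 0.0938% to 0.664%, neuronal markers 0.0375% to 0.152% and 0.00459% to 0.0548% and fibroblast markers 0.00748% to 0.0570% and 0.0200% to 0.0357%. Their part in the differences was not tested, and in such pooled RNA fewer cells of a type cannot be told apart from less RNA per cell.

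**Figure D1:**
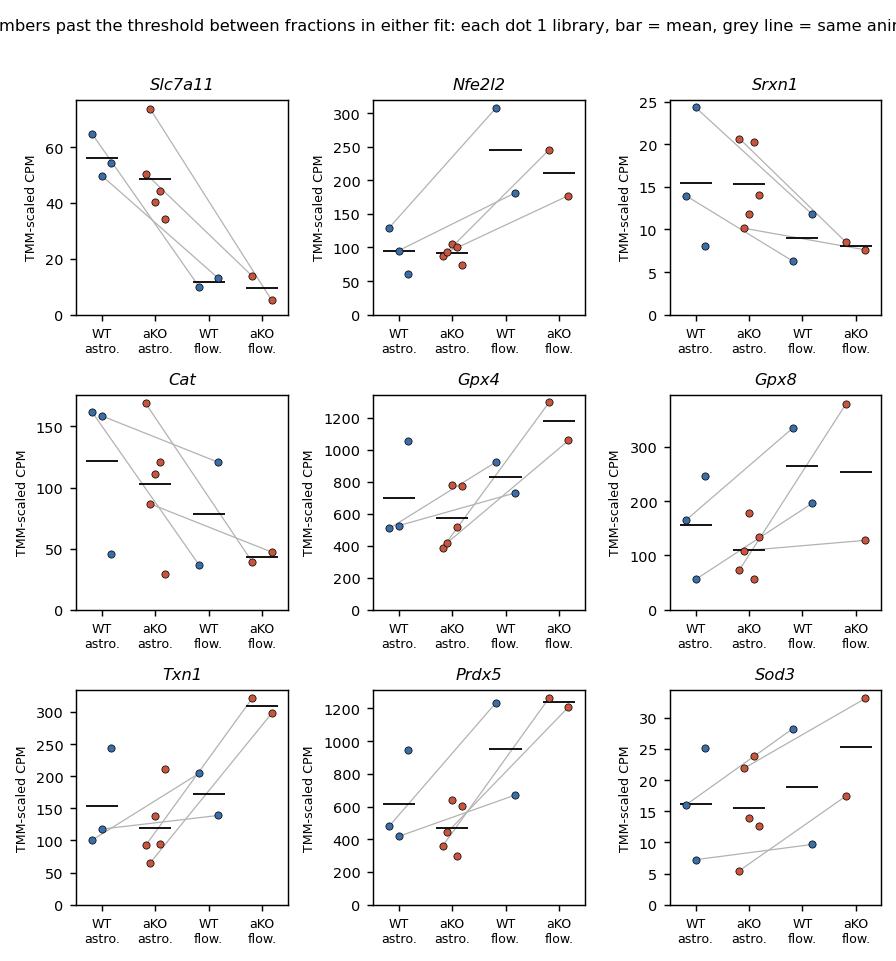
TMM-scaled CPM (y axes from 0) of 9 listed genes in the 12 libraries, grouped on the x axis by genotype and fraction, with each dot a library, bars the group means and grey lines joining libraries of the same animal. Slc7a11 falls and Nfe2l2 rises from astrocytes to flowthrough in all 4 animals, without overlap between fractions, and the other 7 genes move the same way in each of the 4 animals but overlap.

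With the animal as a block, which compares the fractions within each of the 4 brains that gave both, 9 of the 33 genes passed, beside 29.5% of 20189 genes tested in that fit, 3 higher (15.9% of all genes) and 6 lower (13.6%). Slc7a11 at 2.59 (SE 0.39) and Nfe2l2 at -1.13 (SE 0.34) passed again, with edgeR adjusted p-values of 0.00108 and 0.0304. Those added were Srxn1 and Cat, higher in astrocytes, and Gpx4, Gpx8, Txn1, Prdx5 and Sod3, lower. In the same 8 libraries without the block 5 passed, namely Slc7a11, Nfe2l2, Gpx4, Prdx5 and Txn1. Thus 3 of the 7 added calls came with the choice of libraries alone. The share of all genes called in that fit is not given here, so the 5 cannot be set beside it.

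In the synthesis group, Slc7a11 was the only gene of 5 that passed, in either fit. Gclm, the regulatory subunit of glutamate-cysteine ligase, ranged over 20.5 to 31.0 CPM in astrocytes and 11.6 to 24.4 in flowthrough and was higher in astrocytes in all 4 animals, but its estimate of 0.50 (SE 0.26) did not pass. Gclc, the catalytic subunit, ranged over 17.2 to 21.5 and 15.7 to 28.4 CPM, an estimate of -0.10 (SE 0.25). Gss had 0.28 (SE 0.36) and Gsr -0.17 (SE 0.26). Gclc was among the steadiest genes of the list, with an SD of 1.57 CPM around a mean of 19.2 CPM over the 8 astrocyte libraries. Gss was not, since WT 265 and aKO 222 stood at 7.73 and 8.20 CPM while the other 6 lay between 20.1 and 26.2 CPM. Counts of Gss and Gclm are uncertain where Acss2 and Gm6061 overlap their exons.

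Among the glutathione transferases, which couple glutathione to electrophiles, none of 7 passed between fractions in either fit. Gstm1 was higher in astrocytes in all 4 animals, at 984, 2383 and 1209 CPM in WT, 1250.0, 473, 1233, 1208 and 1414 CPM in aKO and 559, 1735, 1155 and 42.0 CPM in flowthrough. The flowthrough values spanned from 42.0 CPM in aKO 205 to 1735 CPM in WT 202, and the estimate was 0.65 (SE 0.64). Without flowthrough aKO 203 it was 2.56 and passed, as did Gstm5 at 1.52 and Prdx6 at 2.18 (edgeR adjusted p = 0.0104, 0.0467 and 0.0289). That leaves aKO 205, the lowest library for all 3 genes, as the only aKO flowthrough library. Without flowthrough aKO 205 the estimates were 0.19, 0.61 and 0.13, and none passed. Astrocyte markers took 0.0375% of the counts in flowthrough aKO 205 and 0.592% in flowthrough WT 202, in the same order as Gstm1, and their part in its spread was not tested. The estimate with all libraries was 0.93 (SE 0.45) for Gstm5, -0.58 (SE 0.40) for Gsta4, -0.19 (SE 0.46) for the microsomal transferase Mgst1 and -0.05 (SE 0.39) for Mgst3. Gstp1 and Gstt1 had 0.02 (SE 0.41) and 0.03 (SE 0.37), with a sign that turned in 10 and 9 of 21 alternatives. Gstp1 shares near-identical sequence with Gstp2, so its reads may be split between the 2 genes.

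Among the glutathione peroxidases, 3 of 4 estimates lay below 0, also with library totals. Gpx4, which reduces lipid hydroperoxides in membranes and restrains ferroptosis, ranged over 386 to 1055 CPM in astrocytes and 730.1 to 1298 CPM in flowthrough. It was lower in astrocytes in all 4 animals, with -0.64 (SE 0.37), and passed with the animal as a block at -1.09 (SE 0.37; edgeR adjusted p = 0.0478). Gpx8, a peroxidase of the endoplasmic reticulum, ranged over 55.7 to 246 and 128 to 379.8 CPM, with -0.99 (SE 0.44), or -1.34 (SE 0.44) with the block (edgeR adjusted p = 0.0427). Gpx1, the cytosolic enzyme, ranged over 52.4 to 172 and 130.1 to 343 CPM, with -0.93 (SE 0.33). It passed neither fit (edgeR adjusted p = 0.0626, and 0.0532 with the block) but passed by DESeq2 at -0.97 (DESeq2 adjusted p = 0.00985). Gpx3, the secreted member, had 0.39 (SE 0.38).

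In the thioredoxin group, Txn1, thioredoxin itself, measured 65.6 at the lowest, 109 at the median and 244 CPM at the highest in astrocytes and 204, 139, 322 and 298 CPM in flowthrough. It was lower in astrocytes in all 4 animals (-0.76, SE 0.38) and passed with the block at -1.29 (SE 0.35; edgeR adjusted p = 0.0190). Srxn1, sulfiredoxin, which repairs over-oxidised peroxiredoxins, went the other way. It measured 8.02 at the lowest, 13.98 at the median and 24.3 CPM at the highest in astrocytes and 6.28, 11.8, 8.48 and 7.59 CPM in flowthrough, with 0.85 (SE 0.35), and 0.99 (SE 0.28) with the block (edgeR adjusted p = 0.0246). The cytosolic and mitochondrial thioredoxin reductases Txnrd1 and Txnrd2 had -0.25 (SE 0.28) and -0.68 (SE 0.35), and the quinone reductase Nqo1 had -0.25 (SE 0.39).

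Of the peroxiredoxins, which reduce peroxides with a reactive cysteine, 5 of 6 estimates lay below 0, or 4 of 6 with library totals. Prdx5, found in mitochondria and peroxisomes, measured 479.5, 418 and 947 CPM in the WT astrocyte libraries, 358, 443, 642, 299 and 604 CPM in the aKO ones and 1234, 670.0, 1265 and 1208 CPM in flowthrough. It was lower in astrocytes in all 4 animals (-1.01, SE 0.38) and passed with the block at -1.31 (SE 0.37; edgeR adjusted p = 0.0249) and by DESeq2 at -1.05 (DESeq2 adjusted p = 0.0150). Without astrocyte library WT 265, its highest in that fraction, it also passed without the block (-1.23, edgeR adjusted p = 0.0306), as did Srxn1 (1.01, edgeR adjusted p = 0.0436). Prdx6, the only 1-cysteine peroxiredoxin of the family and a known astrocyte gene, was the only one above 0, at 0.58 (SE 0.62). It measured 460.1 at the lowest, 1074 at the median and 2379 CPM at the highest in astrocytes and 584, 1719, 976 and 56.1 CPM in flowthrough, so the fractions overlapped. Prdx1, Prdx2, Prdx3 and Prdx4 had -0.24, -0.43, -0.18 and -0.51, none past the threshold. Their sign turned without flowthrough aKO 203, to 0.55, 0.08, 0.94 and 0.15. Trmt112 overlaps exons of Prdx5 and Rnaseh2a those of Prdx2.

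Catalase, which breaks down hydrogen peroxide in peroxisomes, measured 162, 159 and 45.9 CPM in WT astrocytes, 169, 86.5, 111, 121 and 28.8 CPM in aKO astrocytes and 36.7, 121, 38.9 and 47.2 CPM in flowthrough. Astrocytes were higher in all 4 animals, while the astrocyte libraries WT 265 and aKO 222, which have no flowthrough partner, lay as low as 3 of the 4 flowthrough libraries. The estimate for Cat was 0.95 (SE 0.49), and with the block 1.4 (SE 0.41; edgeR adjusted p = 0.0288). Without those 2 libraries, an alternative chosen after seeing the data, Cat passed at 1.27, together with Srxn1, Slc7a11, Nfe2l2, Prdx5 and Txn1. Sod1, and Sod2 of the mitochondrial matrix, had 0.45 (SE 0.38) and 0.28 (SE 0.38). Sod3, the secreted dismutase, ranged over 5.46 to 25.1 and 9.66 to 33.1 CPM, with -0.47 (SE 0.42), and -0.86 (SE 0.29) with the block (edgeR adjusted p = 0.0492). Without flowthrough WT 201 its estimate was 0.02.

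**Figure D2:**
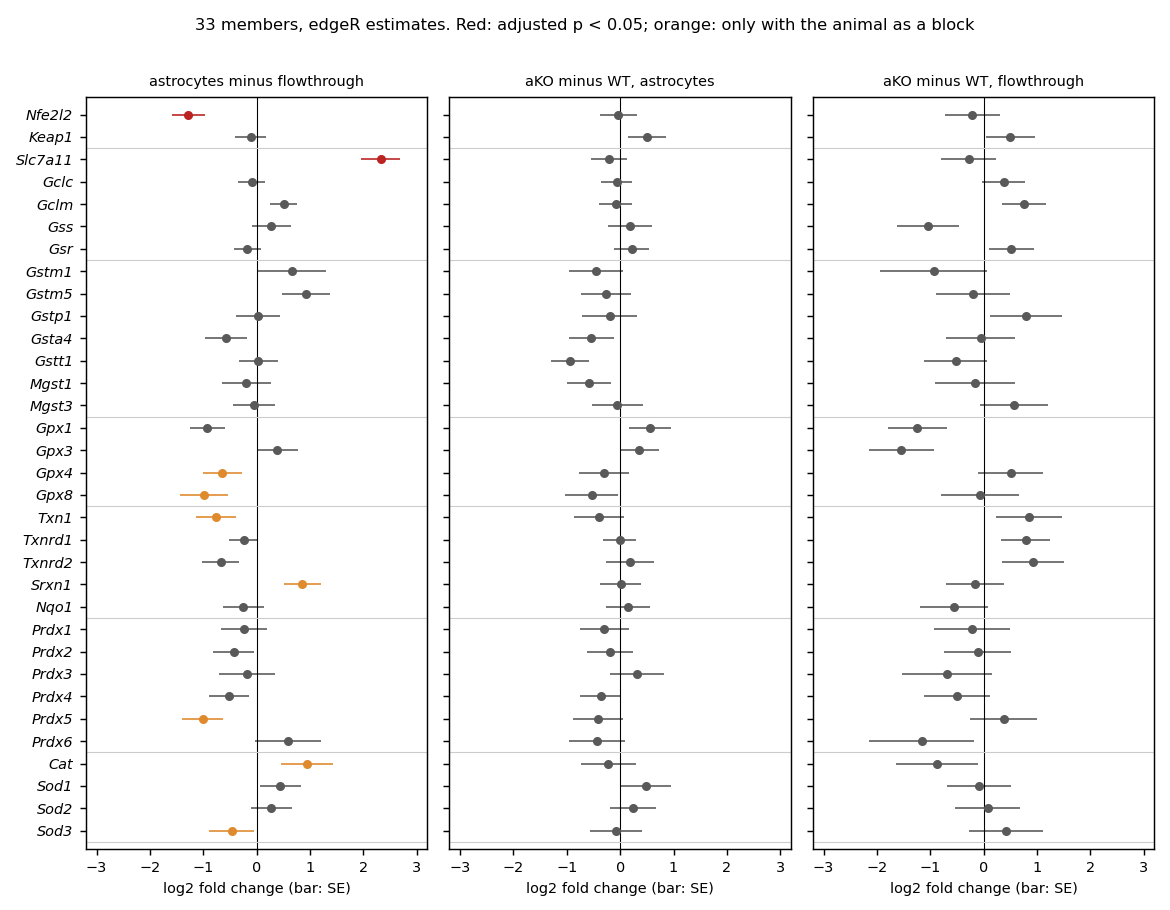
Log2 fold change (x axes) with its SE for the 33 listed genes (y axis, by role) between astrocytes and flowthrough (left), between aKO and WT astrocytes (middle) and between aKO and WT flowthrough (right), from edgeR. Slc7a11 (2.32) and Nfe2l2 (-1.28) passed the adjusted threshold of 0.05 (red), 7 more genes passed with the animal as a block (orange), and none passed between genotypes.

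The genes whose promoter window holds the response element did not move as one between fractions. Of the 8, 4 estimates lay above 0 and 4 below, with a median of 0.13 and a range from -1.28 (Nfe2l2) to 0.93 (Gstm5). Among the 20 genes whose window lacks it, 8 lay above 0 and 12 below, with a median of -0.14. Slc7a11 and Nqo1 are 2 of those 20, and the windows reach no further than 250 bases upstream.

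Astrocyte libraries labelled aKO were compared next with those labelled WT, with Arntl higher in the former as given above. None of the 33 genes passed, beside 0.0264% of 18950 genes tested (5 genes, 0.0211% higher and 0.00528% lower). At an unadjusted p under 0.05 there was 1 listed gene, beside 1.58% of all genes, and DESeq2 called none of the 33. Estimates ran from -0.94 to 0.56, with 11 above 0 and 22 below, a median of -0.09 and a median of 0.02 over all genes. With library totals 17 lay above 0 and 16 below. A simulation of this comparison with 200 changed genes found 45% of 4-fold and 0% of 2-fold changes, so changes of the size estimated here could be missed. The real comparison called only 5 genes, so its cutoff on the unadjusted p was stricter than in the 4-fold simulation. The 45% is therefore only a rough guide and may be too high. No alternative made any listed gene pass.

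The gene with the smallest p was Gstt1, the theta-class transferase at chr10:75783813-75798584. It measured 62.8, 99.96 and 109 CPM in WT astrocytes 201, 202 and 265 and 51.6, 28.1, 55.2, 44.8 and 58.7 CPM in aKO astrocytes 203, 205, 208, 221 and 222. All 5 aKO libraries lay below all 3 WT libraries, the only listed gene whose groups did not overlap, beside 1.47% of all genes (0.976% higher and 0.496% lower). The log2 fold change was -0.94 (SE 0.36; edgeR quasi-likelihood test, adjusted p = 0.9997, 0.0186 before adjustment). Over 16 alternatives it ran from -1.13 to -0.66. In flowthrough, Gstt1 measured 63.0 and 91.0 CPM in WT 201 and 202 and 84.6 and 22.8 CPM in aKO 203 and 205, where the genotypes overlapped.

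All 7 listed glutathione transferase estimates lay below 0 in aKO astrocytes, with a median of -0.45 and a range from -0.94 to -0.06. None passed. This direction was not shared by the whole family. Of 15 other glutathione transferases tested, 5 estimates lay above 0 and 10 below, from -0.88 to 0.87, and none passed. The 7 lay below 0 in 9 of 16 alternatives, and at the fewest 4 did, with library 202 counted as aKO. With library totals in place of TMM, 6 lay below 0. Gsta4, which clears the lipid peroxidation product 4-hydroxynonenal, measured 270.2, 235 and 416 CPM in WT and 165, 164, 302, 153 and 290.4 CPM in aKO, and Mgst1 239, 270.4 and 365 CPM in WT and 220.1, 103, 250.5, 175 and 243 CPM in aKO. Their log2 estimates were -0.54 (SE 0.42) and -0.58 (SE 0.41), and WT and aKO overlapped for both. Gstm1, Gstm5, Gstp1 and Mgst3 also overlapped, and Gstm1 was lowest of all 8 astrocyte libraries in aKO 205 at 473 CPM and highest in WT 202 at 2383 CPM. Of marker lists in the same comparison, all 8 choroid plexus and all 8 ependymal markers had estimates below 0 and all 10 oligodendrocyte and all 10 endothelial markers above 0, none past the threshold. Choroid plexus markers took 1.43% to 17.7% of the counts in WT and 2.18% to 11.3% in aKO. Ependymal markers took 0.0609% to 0.261% and 0.0562% to 0.142%, oligodendrocyte markers 0.369% to 1.28% and 0.376% to 2.31%, and endothelial markers 0.0486% to 0.0946% and 0.0753% to 0.127%. No marker of these 4 lists was at 0 in any astrocyte library, and their part in the estimates was not tested.

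**Figure D3:**
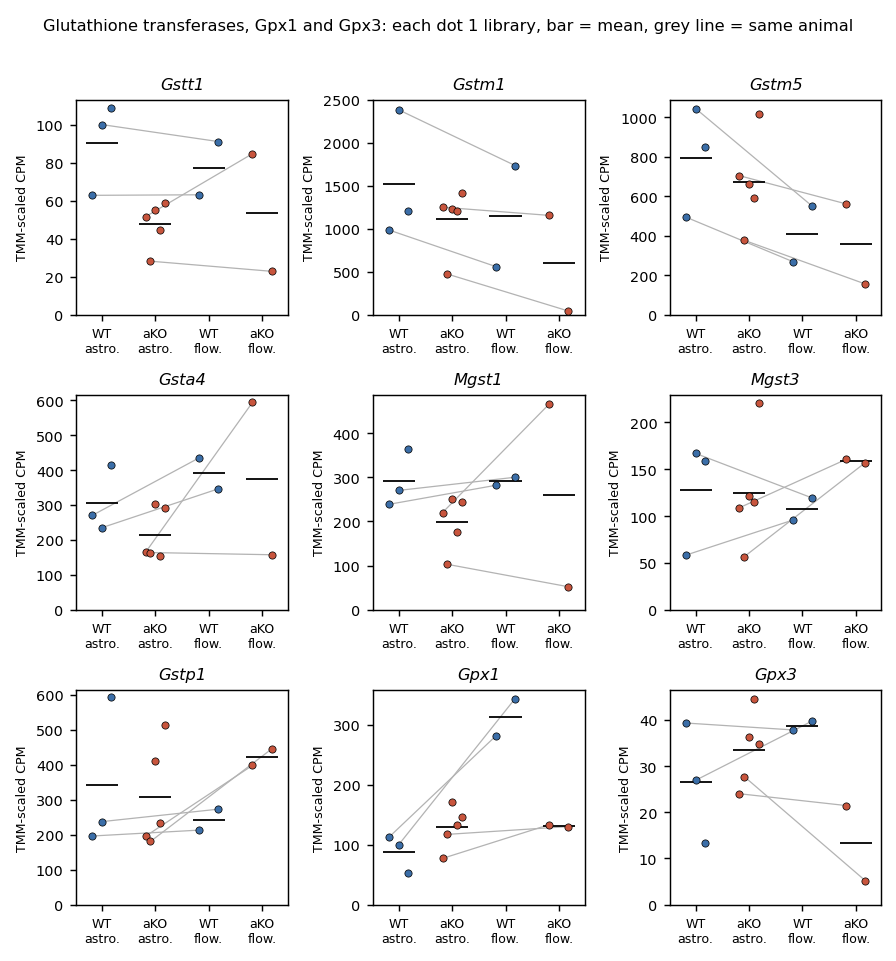
TMM-scaled CPM (y axes from 0) of the 7 glutathione transferases and of Gpx1 and Gpx3 in the 12 libraries, grouped on the x axis by genotype and fraction, with bars for group means and grey lines joining libraries of the same animal. Gstt1 is the only gene whose 5 aKO astrocyte libraries all lie below the 3 WT libraries, and Gpx1 in flowthrough lies at 281 and 343 CPM in WT and 133 and 130.1 CPM in aKO.

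Keap1 measured 10.6, 11.6 and 11.8 CPM in WT and 15.8, 21.8, 9.54, 22.1 and 11.7 CPM in aKO astrocytes, a log2 estimate of 0.51 (SE 0.36), and aKO 208 lay below all 3 WT libraries. Gpx1 measured 113, 100 and 52.4 CPM in WT and 77.1, 117, 172, 133 and 146 CPM in aKO astrocytes (0.56, SE 0.40), where aKO 203 lay among the WT libraries. Gpx8 measured 165, 55.7 and 246 and 73.3, 109, 178, 56.1 and 134 CPM (-0.53, SE 0.50), and its sign turned without WT 265, to 0.04. None of the 3 passed. Genes of glutathione supply had estimates from -0.21 to 0.21 over Slc7a11, Gclc, Gclm, Gss and Gsr. Nfe2l2 had a mean of 95.2 ± 34.1 CPM over the 3 WT libraries (SD) and 92.2 ± 12.2 CPM over the 5 aKO libraries. Nqo1, a widely used readout of NRF2, measured 68.0, 36.1 and 17.1 CPM in WT and 38.4, 53.0, 62.3, 32.8 and 33.8 CPM in aKO, with the groups overlapping. Prdx4, the gene with an E-box in its window, measured 98.5, 66.3 and 127 CPM in WT and 67.3, 61.7, 104, 53.5 and 96.1 CPM in aKO, also overlapping.

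In flowthrough, aKO and WT were represented by 2 libraries each. No listed gene passed, beside 0% of 20637 genes. At an unadjusted p under 0.05 there were 2 listed genes, beside 3.96% of all genes, and DESeq2 called none. Gpx3, the secreted peroxidase, measured 37.8 and 39.7 CPM in WT 201 and 202 and 21.4 and 5.18 CPM in aKO 203 and 205, a log2 fold change of -1.54 (SE 0.62). Gpx1 measured 281 and 343 CPM in WT and 133 and 130.1 CPM in aKO, with -1.25 (SE 0.55). The edgeR adjusted p was 0.804 for each, and the order of 2 libraries against 2 was not compared with that of all genes. Without flowthrough aKO 205 the estimate was -0.93 for Gpx3 and -1.31 for Gpx1. Gclm had 0.76 (SE 0.42), Gss -1.04 (SE 0.58), Txnrd1 0.79 (SE 0.45) and Txnrd2 0.92 (SE 0.58). Microglial markers took 1.22% and 0.923% of the counts in WT and 0.959% and 0.726% in aKO flowthrough, with 6 of 12 estimates below 0. All 13 astrocyte markers had estimates below 0, with a median of -1.24, at 0.0651% and 0.592% of the counts in WT and 0.186% and 0.0375% in aKO. Of 8 neuronal markers, 7 lay below 0, at 0.00459% and 0.0548% in WT and 0.0216% and 0.00533% in aKO. No marker of these 3 lists passed or was at 0 in a flowthrough library, and their part in the differences was not tested.

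The genotype effect did not differ between fractions past the threshold for any listed gene, beside 0% of 20637 genes, nor with the animal as a block, beside 0.00495%. There were 2 listed genes at an unadjusted p under 0.05, beside 2.42% of all genes, and none by DESeq2. These were Gpx1 and Gpx3 again, whose aKO effect in astrocytes exceeded that in flowthrough by 1.79 (SE 0.68) and 1.88 (SE 0.76) on the log2 scale (edgeR adjusted p = 0.956 for both). Gss followed at 1.20 (SE 0.72). For Gpx1 and Gpx3 the aKO estimate lay above 0 in astrocytes and below 0 in flowthrough.

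The lowest and highest values of the listed genes were unevenly spread over libraries. In flowthrough aKO 205, 17 of the 33 genes had their lowest value of the 4 flowthrough libraries, where 31.8% of all genes did, and 11 had their lowest value of all 12, where 17.4% of all genes did. Gstm1 stood there at 42.0 CPM, Prdx6 at 56.1, Mgst1 at 51.9, Prdx3 at 20.9 and Prdx1 at 393 CPM. The other 3 flowthrough libraries lay at or above 559, 584, 282, 147 and 1281 CPM for the same genes. Another 8 genes had their highest flowthrough value in this library, where 36.9% of all genes did, among them Gclc at 28.4 CPM, Txnrd1 at 31.3 CPM and Txnrd2 at 12.4 CPM. Its choroid plexus markers took 33.4% of the counts, the highest of the 12 libraries, and its astrocyte markers 0.0375%, the lowest. Their part in these values was not tested. Flowthrough aKO 203 held the highest flowthrough value of 14 listed genes, where 18.5% of all genes were highest, and the lowest of 0, where 12.7% were. Among the 8 astrocyte libraries, WT 265 held the highest value of 12 listed genes (14.3% of all genes) and the lowest of 8 (19.1% of all genes). The astrocyte library of aKO 205 held the lowest value of 9 listed genes (14.3% of all genes) and the highest of 4 (17.9%).

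**Figure D4:**
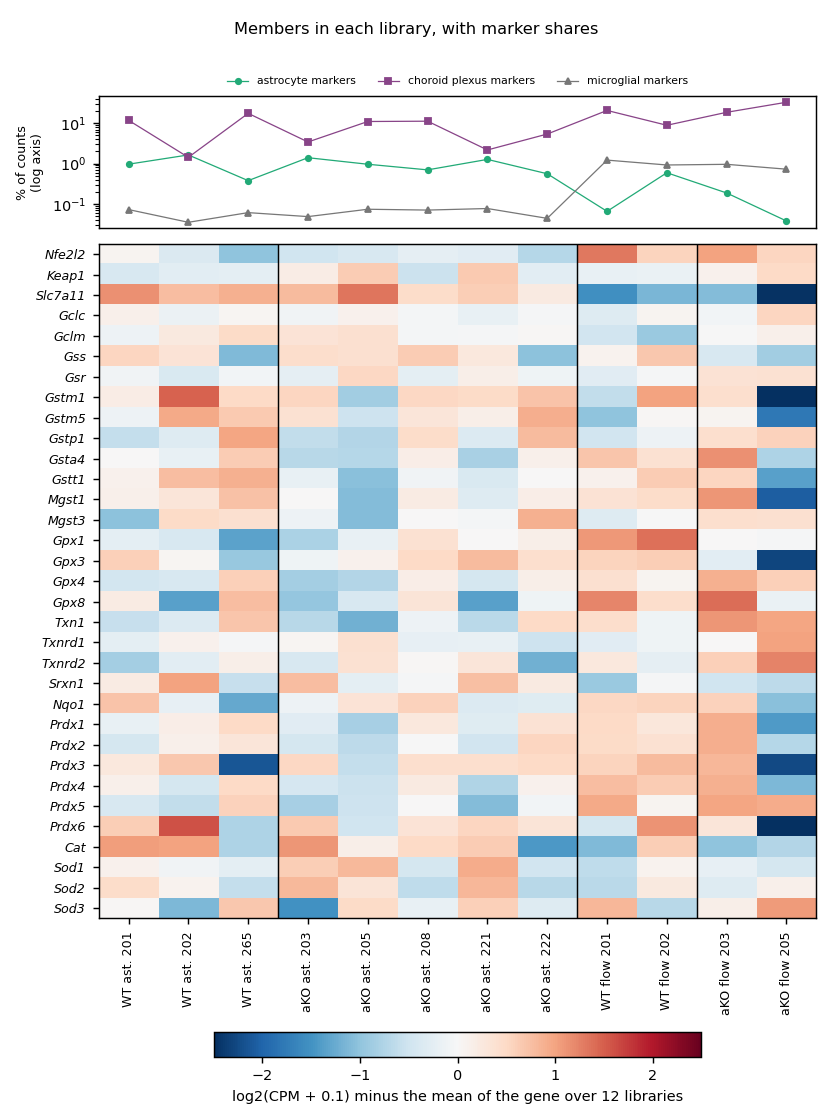
Heat map of the 33 listed genes (rows, by role) in the 12 libraries (columns), coloured by log2(CPM + 0.1) minus the gene's mean over the libraries and clipped at 2.5 in either direction, under the percentage of counts taken by 3 marker lists (log axis). Flowthrough aKO 205 holds the lowest value of 11 genes, Gstm1 and Prdx6 among them, and WT astrocyte 265 lies low for Prdx3, Gpx1, Nqo1 and Gss.

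Other genes of the same pathways, were taken from 5 further lists, and their calls between fractions stand beside 17% of all genes called. Among NRF2 partners and regulators, 1 of 10 passed, lower in astrocytes. This was Bach1, the repressor that competes with NRF2 for the response element, at -1.25 (SE 0.28; edgeR adjusted p = 0.00530). It did not pass without flowthrough WT 201 (-1.10, edgeR adjusted p = 0.0538) or with library totals (-0.96, edgeR adjusted p = 0.0549). Of 15 other glutathione transferases tested, 1 passed, Mgst2, a microsomal transferase that also makes leukotriene C4, at -2.31 (SE 0.44; edgeR adjusted p = 0.00159). Of 13 other glutathione cycle genes, Ggt7 was higher at 2.00 (SE 0.41) and Ggt5, which splits glutathione conjugates outside the cell, lower at -1.45 (SE 0.30; edgeR adjusted p = 0.00300 and 0.00354). Ggt7 measured 6.06 to 29.7 CPM in astrocytes and 3.74 to 9.94 CPM in flowthrough. None of 17 other NRF2 targets and none of 19 other thioredoxin and repair genes passed. At an unadjusted p below 0.05 there were 4 and 1 of them, beside 32% of all genes. DESeq2, whose share of all genes is not given here, called 2 of the 17 (Me1 and Fth1, higher) and none of the 19. It also added Rbx1, lower, among the NRF2 partners. Of the 17 and of the 19, those with the smallest edgeR p were Me1 (0.77) and Blvrb (-0.88), and Glrx5 (-0.74) and Txnip (-0.66). With the animal as a block, 2 of 10, 3 of 17, 3 of 15, 2 of 13 and 1 of 19 genes passed in these lists, beside 29.5% of all genes in that fit, adding Rbx1, Fth1, Me1, Blvrb, Gstm3, Gstt2 and Glrx5.

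Between aKO and WT astrocytes, no gene of these 5 lists passed by edgeR or DESeq2, and of the 74 tested 2 had an unadjusted p under 0.05, beside 1.58% of all genes. Fth1, the ferritin heavy chain that stores iron, measured 636, 543 and 753 CPM in WT and 3831, 4019, 439, 9661 and 729.6 CPM in aKO astrocytes 203, 205, 208, 221 and 222. The 3 aKO libraries 203, 205 and 221 lay far above the WT libraries, while 208 and 222 lay within or below their range. The log2 estimate was 2.52 (SE 0.87; edgeR adjusted p = 0.9997). Oligodendrocyte markers took 1.79%, 1.33% and 2.31% of the counts in aKO 203, 205 and 221 and 1.19% and 0.376% in aKO 208 and 222. In WT 201, 202 and 265 they took 0.973%, 1.28% and 0.369%. The part of these markers was not tested. Gstm7 had 0.87 (SE 0.37), Gstm6 0.59 (SE 0.36), Hmox1 0.53 (SE 0.40), Chac1 1.18 (SE 0.75), Hagh 0.34 (SE 0.34) and Sesn1 0.54 (SE 0.40). Dpp3 and Bach1 had 0.34 (SE 0.36) and 0.33 (SE 0.35), and Selenok had -0.45 (SE 0.49).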

How the data were processed

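RNA was sequenced from 12 libraries of 8 mice, with groups taken from the titles and the number in a title read as the animal. The deposited tables give, per Ensembl gene, the read count, the CPM and the RPKM computed by the authors, and CPM and RPKM followed from the count, the library total and the gene length. The submitters' processing notes name STAR 2.5.1a, featureCounts 1.4.6-p5, Subread, bcl2fastq and GRCm38. The sources used here do not give the annotation release, strand setting or handling of multi-mapping reads, and overlapping or near-identical genes may share reads. GENCODE vM21 names matched 40254 of 41388 identifiers, and the other 1134 stayed in the tests.

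Tests on the deposited counts used edgeR 4.0.16 under R 4.3.3 (quasi-likelihood, robust, TMM, filterByExpr with minimum count 10 and total 15), two-sided, adjusted by Benjamini-Hochberg over all genes, threshold 0.05. The astrocyte comparison used 8 libraries and the others a fit of 4 groups to 12. SE is the estimate divided by the square root of F. Code was tested on simulated counts. Printed CPM is the count over the TMM-scaled total. All listed genes passed the filter.

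The listed genes and all lists were chosen with earlier results of these data known. Fold changes are given for all listed genes between fractions, for those called or else the 6 with the smallest p between genotypes, the 3 with the smallest p for the difference of effects, and the 2 with the smallest p in each further list. Alternatives were DESeq2 1.42.0, its size factors, library totals, omission of Ttr and mitochondrial genes, no filter, each library left out, 202 as aKO, 1 fit of 12 libraries, and the animal as a block. Pairing rests on both fractions coming from the same brain. Deviations from group means correlated with r = 0.014, 0.533, 0.195 and 0.519 for animals 201, 202, 203 and 205.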

Additional observations from a re-analysis of the deposited data

Results flagged for a closer look

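Gstm1 and Prdx3 each had 1 library far from the other 4 in aKO astrocytes, in both cases animal 205. Gstm1 stood at 473 CPM in aKO 205, and the other 4 lay between 1208 and 1414 CPM, a gap that is 0.782 of the group's range. Prdx3, the mitochondrial peroxiredoxin, stood at 66.2 CPM in aKO 205, and the others lay between 133.0 and 142 CPM, a gap of 0.877 of the range. The limit for 5 samples is 0.71, and chance alone passes it in about 1 of 20 groups, where 33 genes were examined. In flowthrough of the same animal Gstm1 and Prdx3 were also the lowest, at 42.0 and 20.9 CPM. No listed gene passed the test for a difference in genotype effect between fractions.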

How the results depend on the processing

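None of the 33 genes passed between genotypes, in either fraction, or for the difference of both effects, in any alternative. Between fractions Slc7a11 passed in all 21, and Nfe2l2 and Bach1 in 19, failing without flowthrough WT 201 and with library totals (Bach1 at -1.10 and -0.96). Listed genes higher in astrocytes were 1 with all libraries, 3 with the replicate block or without aKO 222 and WT 265, and 1 to 4 with each library left out (4 without flowthrough aKO 203). Those lower were 1 with all libraries, 6 with the replicate block, 4 in those 8 libraries without it, 3 by DESeq2, 3 without aKO 222 and WT 265, 0 with library totals and 0 to 2 with each library left out. Over all genes, the fractions gave 3517 calls, 5951 with the replicate block and 1691 to 4107 with each library left out (1691 without flowthrough WT 201, 2136 without flowthrough aKO 205), with 50% of calls higher in astrocytes by TMM and 63.4% by library totals. In astrocytes, 5 genes passed between genotypes, 15 by DESeq2, 8 without the count filter, 3 without aKO 222 and WT 265, 1 in the fit of 12, 0 with 202 as aKO and 0 to 5 with each library left out (0 without WT 201, 2 without aKO 205, 3 without WT 265). In flowthrough there were 0, 45 without the filter and 0 to 1 with each library left out. For the difference of effects there were 0, 40 without the filter and 1 in the 8 libraries with or without the replicate block. The cause of these moves was not tested. Leaving out a flowthrough library leaves a group of 1, whose spread is assumed to be that of the other groups.

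Signs turned only for estimates that passed in no setting, except Sod3. With library totals Gclc had 0.171, Gsr 0.104, Keap1 0.173, Mgst3 0.116, Nqo1 0.0268, Prdx3 0.0149 and Txnrd1 0.0371. Gstp1 had -0.0120 by DESeq2 and with its size factors, -0.643 with the replicate block, -0.648 without it and -0.433 without aKO 222 and WT 265. Gstt1 had -0.00464, -0.00455, -0.0529, -0.158 and -0.0736 in these settings. With the replicate block Nqo1 had 0.0415 and Prdx3 0.253, and without aKO 222 and WT 265 0.00123 and 0.0514. With each library left out, the estimates ran over -0.232 to 0.0845 (Gclc), -0.893 to 0.0463 (Gsta4), -0.304 to 0.158 (Gstp1), -0.289 to 0.639 (Gstt1), -0.210 to 0.0131 (Keap1), -0.605 to 0.960 (Mgst1), -0.202 to 0.123 (Mgst3), -0.551 to 0.275 (Nqo1), -0.596 to 0.550 (Prdx1), -0.716 to 0.0816 (Prdx2), -0.584 to 0.945 (Prdx3), -0.840 to 0.153 (Prdx4), -0.755 to 0.0233 (Sod3), -0.455 to 0.0615 (Txnrd1) between fractions, and over -0.942 to 0.0443 (Gpx8) and -0.659 to 0.0458 (Selenok) between genotypes in astrocytes.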

Other observations

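Several listed genes split the aKO astrocyte libraries in the way Fth1 did, which was noticed after their values were seen and was not tested. Sod1 measured 509.5, 581 and 626 CPM in aKO 203, 205 and 221, against 245 and 237 CPM in aKO 208 and 222 and 356, 309.7 and 281 CPM in WT 201, 202 and 265. Keap1, with values given above, also had aKO 203, 205 and 221 above the WT libraries and aKO 208 and 222 the lowest of the 5. Sod2, the manganese enzyme of mitochondria, measured 100.1, 71.5, 36.5, 102 and 35.4 CPM in aKO 203, 205, 208, 221 and 222. For Sod2 too, aKO 208 and 222 were the lowest of the 5, but unlike Fth1, aKO 205 lay below WT 201. Gpx4, Prdx5, Txn1 and Gstp1 had the opposite order, with aKO 208 and 222 the highest. Gstp1, for one, measured 196, 181, 411, 234 and 515 CPM in the same order of animals, and WT 265 held its highest astrocyte value at 594 CPM. Mitochondrially encoded genes took 11.1% to 36.5% of the counts in the aKO astrocyte libraries, lowest in 205 and highest in 222. Astrocyte markers took 1.4%, 0.963% and 1.27% in aKO 203, 205 and 221 and 0.698% and 0.559% in aKO 208 and 222. Erythroid markers took 0.0263%, 0.0201% and 0.0256% against 0.174% and 0.0554% in the same libraries. Microglial markers did not split this way, at 0.0482%, 0.0734% and 0.0765% against 0.07% and 0.0436%. The part of these markers was not tested.

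Prdx3 in WT 265 stood at 22.7 CPM, while the other 7 astrocyte libraries lay between 66.2 and 160.4 CPM. Prdx3 was 1 of 8 listed genes at their lowest astrocyte value in WT 265, with Nfe2l2, Gss, Gpx1, Gpx3, Srxn1, Nqo1 and Prdx6, where 19.1% of all genes were lowest. Another 12 were at their highest there (Gclm, Gstp1, Gsta4, Gstt1, Mgst1, Gpx4, Gpx8, Txn1, Prdx1, Prdx4, Prdx5 and Sod3), where 14.3% of all genes were highest. Astrocyte markers in WT 265 took 0.377% of the counts, the least of the 8.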
